A study of Homo sapiens with 12 samples.

Results

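Values of 9 genes of the Notch pathway were examined: the receptors NOTCH1, NOTCH2 and NOTCH3, the ligands JAG1 and DNER, and the target transcription factors HES1, HEY1, HEY2 and HEYL. They were taken as the probe sets that name only 1 of these genes, 24 of 54675 on the array, and as the mean of these probe sets per gene, 9 of 19775 genes. All 9 genes were found, with 1 probe set for DNER, 2 each for NOTCH1, NOTCH3, HEY1, HEY2 and HEYL, 3 for HES1, 4 for NOTCH2 and 6 for JAG1. The set was chosen by the members' place in the pathway and selected on values of these arrays already known, their log2 differences between the 4 groups. Their differences between groups are therefore given as a description with standard errors and without p-values; "called" says only that a gene had an adjusted p under 0.05 in the limma fit across all genes.

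RNA came from IMR-90, an established line of human lung fibroblasts with a limited lifespan in culture, bought at population doubling 27 and grown without any genetic change. There were 12 Affymetrix arrays in 4 groups of 3 replicates: young cells at population doubling 30 in 20% oxygen (young-20%), senescent cells at doubling 48 in 20% oxygen (senescent-20%), young cells at doubling 30 in 3% oxygen (young-3%), and old, nonsenescent cells at doubling 53 in 3% oxygen (old-3%). All were monolayers in serum-containing medium, harvested at 80% confluency. Each oxygen level had its own incubator, so that oxygen and incubator cannot be told apart, and the senescent and old cells also differed by their number of doublings. The labels call the replicates biological without saying how they were raised, so the spread among them may in part be technical. A value of 0 means that an array stood at the 12-array median of that probe set, and a value of 1 that its log2 signal was higher by 1. Such a value shows differences between arrays but no absolute level, so neither the expression of one gene against another nor the presence of fibroblast markers could be read from it.

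Notch receptors are single-pass membrane proteins that bind ligands on neighbouring cells. Binding exposes the receptor to ADAM10 and then to the gamma-secretase complex, and the freed intracellular domain joins the DNA-binding protein RBPJ and a Mastermind coactivator to switch on target genes, above all the HES and HEY repressors. In fibroblasts and mural cells the pathway acts on differentiation and matrix production, and in cultured fibroblasts undergoing senescence NOTCH1 has been linked to the make-up of the secretome.

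Promoter sequence is shown for the target genes because RBPJ is known to bind the letters TGGGAA, in particular as GTGGGAA. Promoters of 7 of the 9 genes, from RefSeq on GRCh38.p14, were searched, without DNER and HEY1. In the 250 bases before the start, TGGGAA or its reverse complement TTCCCA was present for 3 of these 7 genes, HES1, HEY2 and HEYL, and for 21.1% of 27305 promoters of the same length. The longer GTGGGAA or TTCCCAC, which overlaps it, was present for the same 3 genes and for 5.46% of all promoters. The 3 stretches are printed with TGGGAA or TTCCCA in capitals: HES1 at chr3:194135898-194136147 on the plus strand, HEY2 at chr6:125749382-125749631 on the plus strand and HEYL at chr1:39639644-39639893 on the minus strand.
HES1: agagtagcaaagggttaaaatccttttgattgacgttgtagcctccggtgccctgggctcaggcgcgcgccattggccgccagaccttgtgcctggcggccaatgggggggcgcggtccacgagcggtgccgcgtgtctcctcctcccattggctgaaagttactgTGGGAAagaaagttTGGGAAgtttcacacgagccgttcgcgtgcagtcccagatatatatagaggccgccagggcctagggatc
HEY2: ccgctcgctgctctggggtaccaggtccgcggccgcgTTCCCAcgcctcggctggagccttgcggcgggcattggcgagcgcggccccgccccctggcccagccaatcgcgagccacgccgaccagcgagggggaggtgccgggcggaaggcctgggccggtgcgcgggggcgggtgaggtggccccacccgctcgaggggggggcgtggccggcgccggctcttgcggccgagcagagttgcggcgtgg
HEYL: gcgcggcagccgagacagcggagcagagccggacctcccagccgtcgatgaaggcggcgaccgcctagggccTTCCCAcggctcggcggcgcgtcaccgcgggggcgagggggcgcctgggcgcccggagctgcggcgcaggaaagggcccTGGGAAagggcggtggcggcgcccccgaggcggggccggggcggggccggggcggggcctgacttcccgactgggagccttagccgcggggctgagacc
HES1 carried a pair of matches in the same orientation, beginning 84 and 70 bases before the start; HEYL had matches at 178 and 99 bases and HEY2 a single one at 213 bases. JAG1 had no such match and a single ACGTG (or CACGT), the core of the hypoxia response element, which 18.7% of all promoters also held; the other 6 genes had none. These are matches of letters within this window and were not tested for binding.

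The 9 genes did not follow a common pattern. The group with the highest mean was senescent-20% for 3 genes (all the receptors), old-3% for 3 (DNER, HEY1 and HEYL), young-20% for 2 (JAG1 and HES1) and young-3% for 1 (HEY2). Many of these orders rested on groups whose arrays overlapped, as the values of each gene below show.

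**Figure D1:**
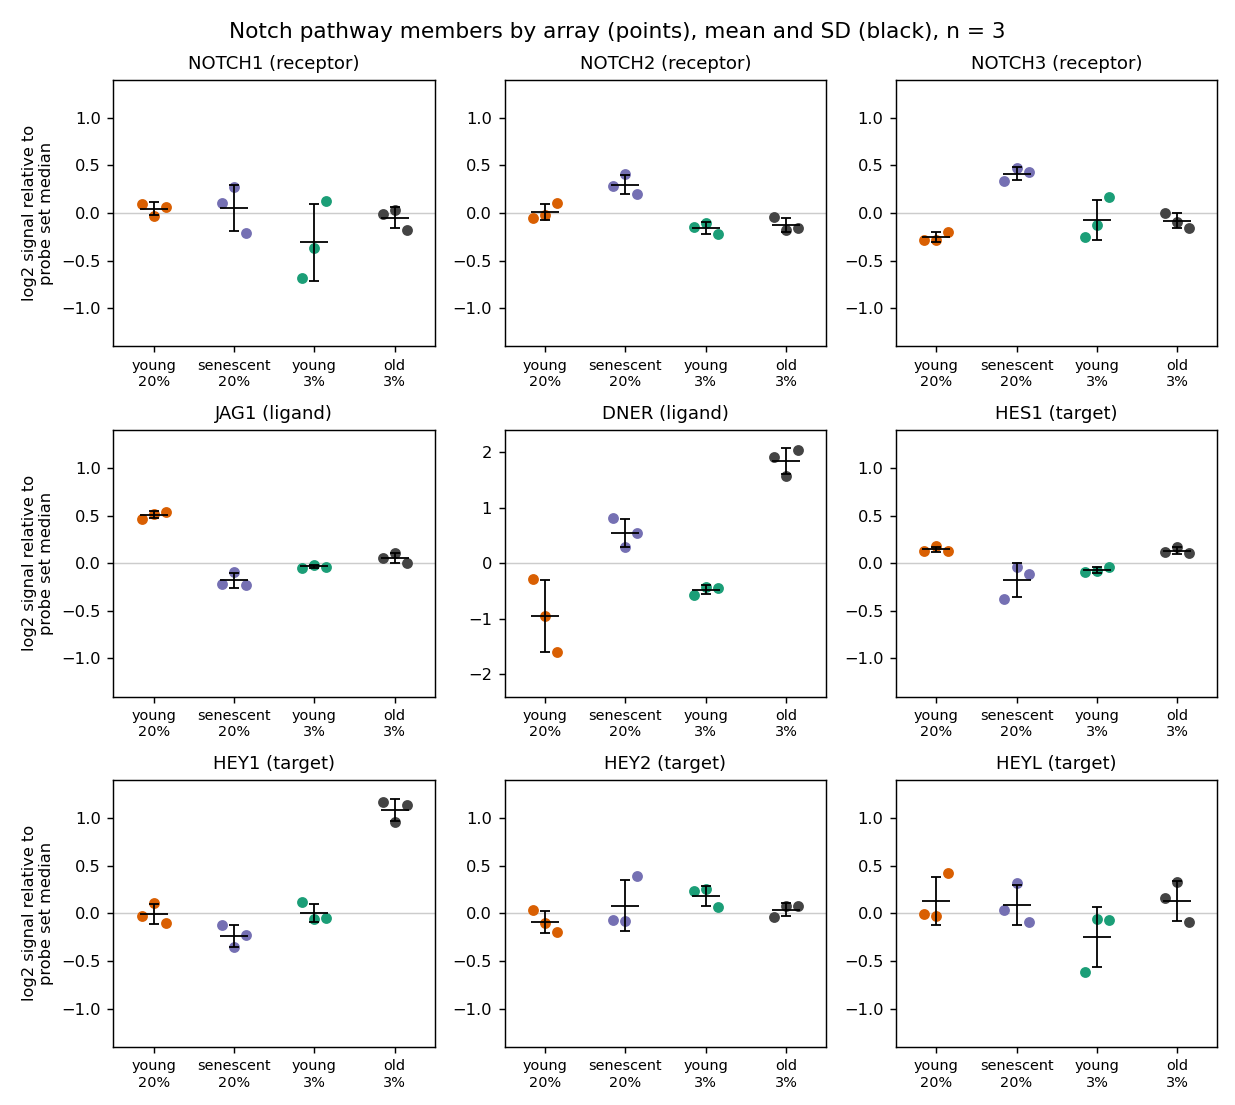
Each panel plots 1 gene; the vertical axis is the log2 signal relative to the probe set median (mean of the gene's probe sets), points are the 3 arrays of each group, and black marks are the mean and SD. HEY1 stands at 0.96 to 1.17 on the old-3% arrays and at -0.36 to 0.11 on the other arrays; the DNER panel has a wider axis.

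Among the receptors NOTCH3, which in the body marks pericytes and vascular smooth muscle, varied most clearly. It stood at -0.28, -0.28 and -0.19 on the young-20% arrays and at 0.34, 0.48 and 0.43 on the senescent-20% arrays. At 3% oxygen it stood at -0.25, -0.13 and 0.17 in young and at 0.0031, -0.09 and -0.16 in old cells. In this mean the senescent arrays were above all 9 others, and the young-20% arrays below those of old-3%. The young-3% arrays overlapped both other nonsenescent groups. On the probe set 203237_s_at the senescent arrays overlapped those of every other group. NOTCH3 rose by 0.67 ± 0.11 (log2 difference ± standard error, n = 3 per group; 1.59-fold) from young to senescent cells at 20% oxygen, and was lower in old-3% than in senescent-20% cells by 0.50 ± 0.11. Between old and young cells at 3% the difference was -0.01 ± 0.11, and the 2 changes with passage differed by 0.68 ± 0.15. That last call ended without young-20% replicate 1 (0.66).

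NOTCH2, a receptor expressed in many mesenchymal cells, was also highest in senescent cells, at 0.29, 0.41 and 0.20. It stood at -0.05, -0.02 and 0.11 in young-20%, at -0.15, -0.10 and -0.22 in young-3% and at -0.05, -0.18 and -0.16 in old-3% cells. In this mean the senescent arrays lay above the other 9, while the remaining groups overlapped in part. On the probe set 202445_s_at the senescent arrays overlapped those of young-20%, and on 210756_s_at those of every other group. NOTCH2 was lower in old-3% than in senescent-20% cells (-0.42 ± 0.09, called); against young-20% cells the senescent cells stood at 0.29 ± 0.09 above, which was not called, but was once arrays were centred on their medians (0.27) or weighted by quality (0.32). A probe set shared by NOTCH2 and its NOTCH2NL paralogs was left out, and the NOTCH2 probe sets may themselves read these near-identical copies, so NOTCH2 values are uncertain.

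NOTCH1 was not called in any of the 5 comparisons. Its arrays stood at 0.10, -0.03 and 0.07 in young-20%, 0.10, 0.27 and -0.21 in senescent-20%, -0.68, -0.37 and 0.12 in young-3%, and -0.0089, 0.03 and -0.18 in old-3% cells. All neighbouring groups in this order overlapped. The largest difference, -0.35 ± 0.18 between young-3% and young-20%, ranged from -0.57 without young-3% replicate 3, where alone it was called, to -0.17 without young-3% replicate 1.

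The ligand JAG1, a membrane protein that activates Notch receptors on adjacent cells, set the young cells at 20% oxygen apart. It stood at 0.47, 0.52 and 0.54 on their arrays, at -0.22, -0.09 and -0.23 in senescent-20%, at -0.05, -0.01 and -0.04 in young-3% and at 0.06, 0.11 and 0.0033 in old-3% cells. No neighbouring groups overlapped, in the order young-20%, old-3%, young-3%, senescent-20%. The gap below young-20% was 0.45, and the other steps were 0.09 and 0.15. JAG1 changed by -0.69 ± 0.08 (1.61-fold lower) from young to senescent cells at 20% oxygen and was lower in young-3% than in young-20% cells (-0.54 ± 0.08, 1.46-fold). Between old and young cells at 3% oxygen it differed by 0.09 ± 0.08 (not called), and the changes with passage at the 2 oxygen levels differed by -0.78 ± 0.11 (called).

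The probe sets of JAG1 differed from each other. A group of 4 (209098_s_at, 209099_x_at, 216268_s_at and 231183_s_at) gave senescent minus young differences at 20% oxygen of -0.80, -1.09, -1.15 and -1.20, each called in a fit across all probe sets. The remaining pair, 209097_s_at and 229924_s_at, gave 0.11 and -0.0039 and were not called in any comparison. The mean over 6 probe sets is therefore smaller than what 4 of them show: 231183_s_at stood at 0.97, 0.90 and 0.78 in young-20% cells and between -0.40 and 0.02 on the 9 remaining arrays. Which transcripts the probe sets read was not examined here.

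**Figure D2:**
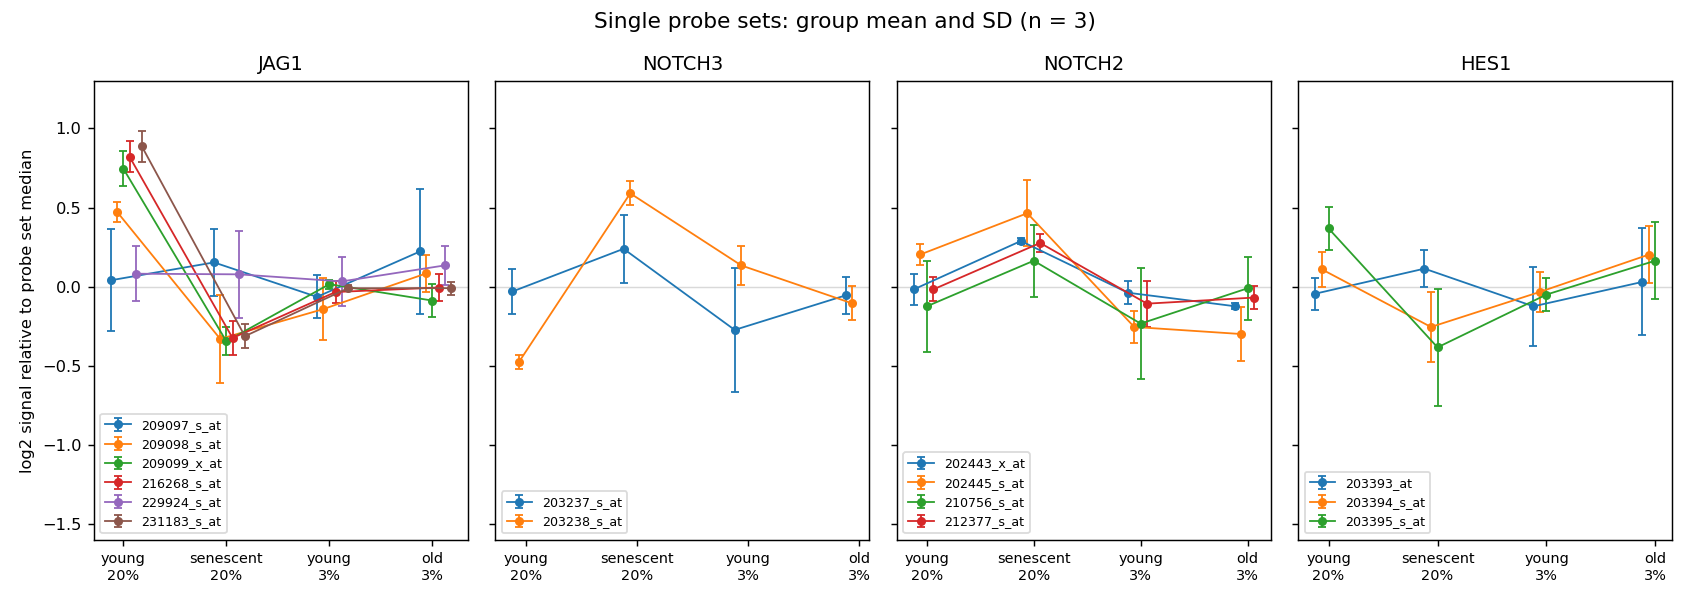
Single probe sets of JAG1, NOTCH3, NOTCH2 and HES1, as the group mean with its SD (n = 3) of the log2 signal relative to the probe set median, in the 4 groups. Lines that stay near 0 beside others that move, as for 209097_s_at and 229924_s_at of JAG1, mark probe sets of 1 gene that differ from each other.

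Similar splits held for NOTCH3 and HES1. Of the NOTCH3 probe sets, 203238_s_at gave 1.06 and 203237_s_at 0.27 for senescent minus young cells at 20% oxygen, of which the first alone was called. On 203238_s_at young-3% was also above young-20% by 0.61 (called), a difference of 0.18 ± 0.11 (not called) in the gene mean. Of the HES1 probe sets, 203395_s_at gave -0.75 (called), 203394_s_at -0.36 and 203393_at 0.16. Both probe sets of HEY1 moved alike: old minus young cells at 3% oxygen gave 1.16 and 1.00. Among the 4 probe sets of NOTCH2 the differences of old-3% from senescent-20% were -0.41, -0.76, -0.17 and -0.35, with the first 2 called.

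DNER, a membrane protein with epidermal growth factor repeats that is known mainly from neurons and has been described as a Notch ligand, spanned the widest range of the 9 genes. Its arrays stood at 1.91, 1.57 and 2.03 in old-3%, 0.81, 0.29 and 0.54 in senescent-20%, -0.57, -0.42 and -0.44 in young-3%, and -0.29, -0.96 and -1.59 in young-20% cells. Old-3% lay above senescent-20% and senescent-20% above both young groups without overlap, whereas the young groups overlapped, with the young-20% arrays far apart. DNER rose 4.97-fold from young to old cells at 3% oxygen (2.31 ± 0.26) and 2.81-fold from young to senescent cells at 20% (1.49 ± 0.26). It was 2.45-fold higher in old-3% than in senescent-20% cells (1.29 ± 0.26). The 2 changes with passage differed by -0.82 ± 0.36, not called with all arrays. This value was -1.15 (called) without young-20% replicate 3 and -0.49 (not called) without young-20% replicate 1. The difference of young-3% from young-20% cells (0.47 ± 0.26, not called) was 0.80 (called) without young-20% replicate 1 and 0.15 (not called) without young-20% replicate 3. This gene was read by 1 probe set alone. In bulk RNA a larger share of cells with the transcript and more transcript per cell cannot be told apart, here and for the other genes.

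Of the targets, HEY1, a basic helix-loop-helix repressor best known from blood vessels and the heart, stood apart in old cells at 3% oxygen. It stood there at 1.17, 0.96 and 1.13, against 0.11, -0.06 and -0.04 in young-3%, -0.03, 0.11 and -0.10 in young-20% and -0.13, -0.36 and -0.22 in senescent-20% cells. The young groups overlapped, and the senescent arrays lay below all 9 others. HEY1 rose 2.11-fold from young to old cells at 3% oxygen (1.08 ± 0.10), differed by -0.23 ± 0.10 between senescent and young cells at 20% (not called), and was 2.50-fold higher in old-3% than in senescent-20% cells (1.32 ± 0.10). The changes with passage differed by -1.31 ± 0.14 (called), and these HEY1 calls held in every alternative tried.

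HES1, the classic target whose paired TGGGAA letters are printed above and whose protein represses its own gene, set young-20% and old-3% cells against the other groups. It stood at 0.13, 0.18 and 0.13 in young-20%, -0.38, -0.04 and -0.11 in senescent-20%, -0.09, -0.08 and -0.04 in young-3%, and 0.12, 0.17 and 0.11 in old-3% cells. In this mean young-20% and old-3% overlapped at the top, young-3% and senescent-20% at the bottom, and the pairs lay apart. No single probe set showed this split: on each of the 3 the old-3% arrays overlapped those of young-3%. On 203395_s_at, for example, old-3% arrays reached down to -0.10 and young-3% arrays up to 0.06. HES1 was called lower in senescent-20% than in young-20% cells (-0.32 ± 0.10, 1.25-fold), and its changes with passage differed by -0.52 ± 0.13 (called). Both calls were lost in 16 of the alternatives tried, of 22 and 21. Leaving out single arrays ended the first call for every array but senescent-20% replicate 2 (differences of -0.35 to -0.22), and the second for every array but that one (-0.55 to -0.42).

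HEY2 and HEYL, relatives of HEY1 known from the heart and from vascular mural cells, were called in no comparison and in no alternative. HEY2 stood at 0.03, -0.10 and -0.19 in young-20%, -0.07, -0.08 and 0.39 in senescent-20%, 0.23, 0.25 and 0.07 in young-3%, and -0.04, 0.08 and 0.08 in old-3% cells. HEYL stood at -0.0061, -0.03 and 0.42, at 0.03, 0.32 and -0.09, at -0.61, -0.06 and -0.07, and at 0.16, 0.32 and -0.09 in the same order of groups. In both genes every group overlapped its neighbour in the order of means, so the 3 genes of the HEY family differed: old-3% minus young-3% was 1.08 ± 0.10 for HEY1, -0.14 ± 0.13 for HEY2 and 0.38 ± 0.18 for HEYL. The difference between these genes was not tested.

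**Figure D3:**
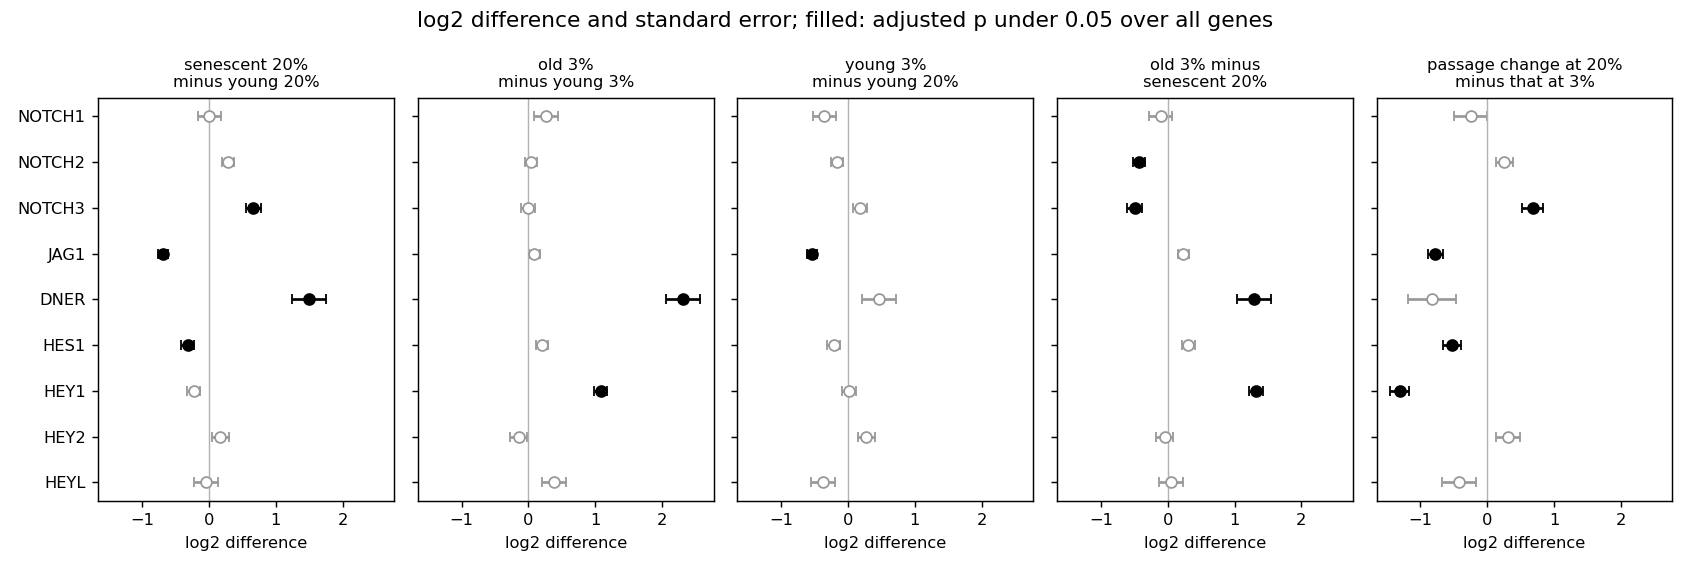
log2 differences of the 9 genes (points) with standard errors (bars) in the 5 comparisons; filled points are called, with an adjusted p under 0.05 over all 19775 genes. DNER and HEY1 are at 2.31 and 1.08 for old minus young cells at 3% oxygen, where the other 7 genes lie between -0.14 and 0.38.

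Between senescent-20% and young-20% cells 2 of 9 members were called higher (NOTCH3 and DNER) and 2 lower (JAG1 and HES1), beside 12.5% of all genes called, 4.67% higher and 7.84% lower. Their median difference was 0.0086, and 0.04 over all genes. The arrays of the 2 groups did not overlap for 6 members, and for 29.3% of all genes. Between old-3% and young-3% cells 2 members were higher (DNER and HEY1) and none lower, beside 1.74% of all genes called, 0.981% higher and 0.759% lower. The medians were 0.20 and 0.05, and 4 members did not overlap, as did 15.6% of all genes. The oxygen comparison of young cells called JAG1 alone, lower, beside 11.8% of all genes, 4.96% higher and 6.84% lower. The medians there were -0.17 and -0.03, and 5 members did not overlap, as did 29.7% of all genes.

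In old-3% against senescent-20% cells 2 members were higher (DNER and HEY1) and 2 lower (NOTCH2 and NOTCH3), beside 11.0% of all genes called, 6.59% higher and 4.41% lower. The medians were 0.04 and -0.02, and 6 members did not overlap, as did 24.3% of all genes. The change with passage differed between oxygen levels for 4 members, above 0 for NOTCH3 and below 0 for JAG1, HES1 and HEY1, beside 6.44% of all genes called, 2.06% above and 4.37% below 0. The medians were -0.42 and -0.03. Of the 24 single probe sets 7, 3, 6, 6 and 8 were called in these 5 comparisons in turn, beside 11.4%, 1.28%, 10.5%, 9.58% and 6.02% of all probe sets naming 1 gene. Because the genes were chosen with these values known, nothing is read from the counts. Both comparisons in which JAG1 was called low against young-20% cells share those 3 arrays.

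Other genes of the pathway were taken from a list by function, and 68 of them were analysed here. Of the 68, 4 were higher and 5 lower between senescent and young cells at 20% oxygen (13.2%, against 12.5% of all genes), none higher and 2 lower between old and young cells at 3% (2.94% against 1.74%), and 6 higher and 7 lower between young cells at 3% and 20% (19.1% against 11.8%). Between old-3% and senescent-20% cells 7 were higher and none lower (10.3% against 11.0%), and for the difference of the changes with passage 2 were higher and 3 lower (7.35% against 6.44%). The medians were 0.02, 0.14, -0.06, 0.04 and -0.11 in these 5 comparisons, against 0.04, 0.05, -0.03, -0.02 and -0.03 over all genes. In all, 17 of the 68 genes (25.0%) were called at least once, beside 21.9% of all genes. Of their 36 calls 22 held without any single array, a share that was not computed over all genes. Among these 17 genes EOGT, KAT2B, NEURL1B, NEDD4, DTX4, HDAC1, THBS2 and MFAP2 were read by 1 probe set each, so agreement among probe sets could not be seen. The remaining receptor NOTCH4, the canonical ligands JAG2, DLL1, DLL3 and DLL4, and the feedback and HES genes HES2, HES4, HES5, HES6, HES7 and NRARP were called in no comparison.

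Enzymes that put sugars on the receptor's extracellular repeats included 3 called genes, each with its highest mean in young-20% cells. LFNG, the fringe enzyme that shifts a receptor's preference among ligands, stood at 0.61, 1.09 and 0.46 there and at -0.26 to 0.19 on the 9 other arrays. It was lower in senescent cells (-0.73 ± 0.16, adjusted p = 0.00726) and in young-3% cells (-0.79 ± 0.16, adjusted p = 0.00434). EOGT, which adds N-acetylglucosamine to the same repeats, stood at 0.34, 0.42 and 0.35 in young-20%, at -0.19, -0.35 and -0.34 in senescent-20%, at -0.11 to -0.03 in young-3% and at 0.03 to 0.10 in old-3% cells. No 2 of these groups overlapped. Its change from young to senescent cells (-0.66 ± 0.08, adjusted p = 1.56e-04) differed from that at 3% oxygen (0.14 ± 0.08) by -0.81 ± 0.12 (adjusted p = 0.00105). POGLUT1, which adds glucose, was lower in young-3% than in young-20% cells (-0.52 ± 0.14, adjusted p = 0.0322), a call that ended without young-20% replicate 1 or 3 or young-3% replicate 2 (adjusted p = 0.11 to 0.121). Of the 6 glycosylation genes, 2 were called in senescence, both lower, beside 12.5% of all genes, with differences above 0 for 3 of the 6. In young-3% cells 3 were called, all lower, beside 11.8% of all genes, with differences above 0 for 2 of the 6. Both comparisons share the 3 young-20% arrays.

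In the transcription complex, KAT2B, an acetyltransferase recruited by the Notch intracellular domain, stood at 0.37, 0.53 and 0.15 in young-20%, -0.36, -0.80 and -0.47 in senescent-20%, -0.07, -0.02 and -0.40 in young-3% and 0.02, 0.34 and 0.19 in old-3% cells. The senescent arrays overlapped those of young-3% alone. KAT2B fell 1.85-fold in senescence (-0.89 ± 0.15, adjusted p = 0.00147), was higher in old-3% than in senescent-20% cells (0.73 ± 0.15, adjusted p = 0.00589), and its changes with passage differed by -1.24 ± 0.21 (adjusted p = 0.00324). Its lower value in young-3% than in young-20% cells (adjusted p = 0.0408) was lost without young-20% replicate 1 or 2, senescent-20% replicate 3, or young-3% replicate 1 or 3 (adjusted p = 0.0524 to 0.16). The coactivator MAML2 was lower in young-3% than in young-20% cells (-0.45 ± 0.11, adjusted p = 0.0168), lost without any of the young-20% arrays or young-3% replicate 3 (adjusted p = 0.0535 to 0.0684). RBPJ itself and the other 6 genes of this group were not called in any comparison.

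Among regulators of ligands and receptors, NEURL1B, a ubiquitin ligase that acts on Notch ligands, followed oxygen. It stood at -0.67 to -0.31 on the 6 arrays at 20% oxygen and at 0.31 to 0.76 on the 6 arrays at 3%. It was 2.16-fold higher in young-3% than in young-20% cells (1.11 ± 0.14, adjusted p = 1.66e-04) and 2.29-fold higher in old-3% than in senescent-20% cells (1.20 ± 0.14, adjusted p = 8.26e-05). NEDD4, a ubiquitin ligase with Notch among its substrates, was instead low in young-20% cells alone, at -0.82, -0.91 and -0.77 against -0.07 to 0.27 on the other 9 arrays. It rose 1.77-fold in senescence (adjusted p = 6.62e-05) and was 1.75-fold higher in young-3% than in young-20% cells (adjusted p = 6.03e-05). Its changes with passage differed by 0.65 ± 0.13 (adjusted p = 0.00883). DTX4, which binds the intracellular domain, was lower in young-3% than in young-20% cells (-0.57 ± 0.14, adjusted p = 0.0141), not without young-20% replicate 2 or young-3% replicate 1 (adjusted p = 0.0589 and 0.0532). ADAM10, the protease that makes the first activating cut, rose by 0.48 ± 0.13 in senescence (adjusted p = 0.027), a call lost without any young-20% array or senescent-20% replicate 1 or 2 (adjusted p = 0.0661 to 0.102).

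Of 11 corepressors, which hold RBPJ targets silent, 2 were called in senescence, 2 in young-3% against young-20% cells and 3 in old-3% against senescent-20% cells, all higher, beside 12.5%, 11.8% and 11.0% of all genes called in either direction. Differences were above 0 for 4, 5 and 9 of the 11 in these comparisons, with medians of -0.05, -0.02 and 0.16. CTBP2 was lowest in young-20% cells (-0.47, -0.36 and -0.44) and rose in senescence (0.39 ± 0.09, adjusted p = 0.00839); it was also higher in young-3% cells (0.54 ± 0.09, adjusted p = 9.82e-04). TLE4 was highest in senescent cells (0.37, 0.36 and 0.37, against -0.32 to 0.13 on the other arrays), with a rise of 0.52 ± 0.09 (adjusted p = 0.0017). TLE3, HDAC1 and SPEN were higher in old-3% than in senescent-20% cells (0.54 ± 0.14, 0.37 ± 0.11 and 0.33 ± 0.10; adjusted p = 0.0219, 0.043 and 0.0463). None of these last 3 calls held throughout: without single arrays, TLE3 was lost for senescent-20% and old-3% arrays (4 of 12, adjusted p up to 0.0987), HDAC1 for 7 (up to 0.149) and SPEN for 10 (up to 0.163). SPEN was also higher in young-3% than in young-20% cells (adjusted p = 0.0443), lost for 9 of 12 arrays left out (up to 0.167).

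The non-canonical ligands and binders on the list were 9 genes: DLK1, DLK2, CNTN1, CNTN6, MFAP2, MFAP5, CCN3, THBS2 and EGFL7. Of these 9, 3 were called at least once, beside 21.9% of all genes. The 3 were matrix proteins, which bind Notch receptors or ligands as one of several functions. Differences were above 0 for 3 of the 9 in senescence and for 4 between old and young cells at 3% oxygen. Thrombospondin 2 (THBS2) fell with passage at both oxygen levels, by 0.66 on the log2 scale at 20% (SE 0.09, adjusted p = 2.9e-04) and by 0.74 at 3% (SE 0.09, adjusted p = 5.91e-04); its arrays stood at 0.11 to 0.24 in young-20%, -0.50 to -0.45 in senescent-20%, 0.49 to 0.69 in young-3% and -0.23 to -0.11 in old-3% cells, with no overlap. Its higher value in young-3% than in young-20% cells (0.38 ± 0.09, adjusted p = 0.0117) was not called without young-20% replicate 3 (adjusted p = 0.0551), and that in old-3% against senescent-20% cells (0.29 ± 0.09, adjusted p = 0.0487) was lost for 10 of 12 arrays left out (up to 0.139) and with the replicate number as a block (adjusted p = 0.0606). MFAP5 stood at 0.43 to 0.86 in young-3% cells and at -0.25 to 0.09 on the other 9 arrays; it was 1.72-fold higher there than in young-20% cells (adjusted p = 5.57e-04). Its fall at 3% oxygen (-0.65 ± 0.11, adjusted p = 0.0109) was lost without old-3% replicate 1 or 2 (adjusted p = 0.052 and 0.055), and its changes with passage differed by 0.85 ± 0.16 (adjusted p = 0.00746). MFAP2 fell in senescence by 1.01 (SE 0.21, adjusted p = 0.00703); its calls in young-3% against young-20% cells (-0.75 ± 0.21, adjusted p = 0.0373) and for the difference of changes (-1.19 ± 0.30, adjusted p = 0.035) were lost for 6 and 10 of the 12 arrays left out (up to 0.14 and 0.0927).

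**Figure D4:**
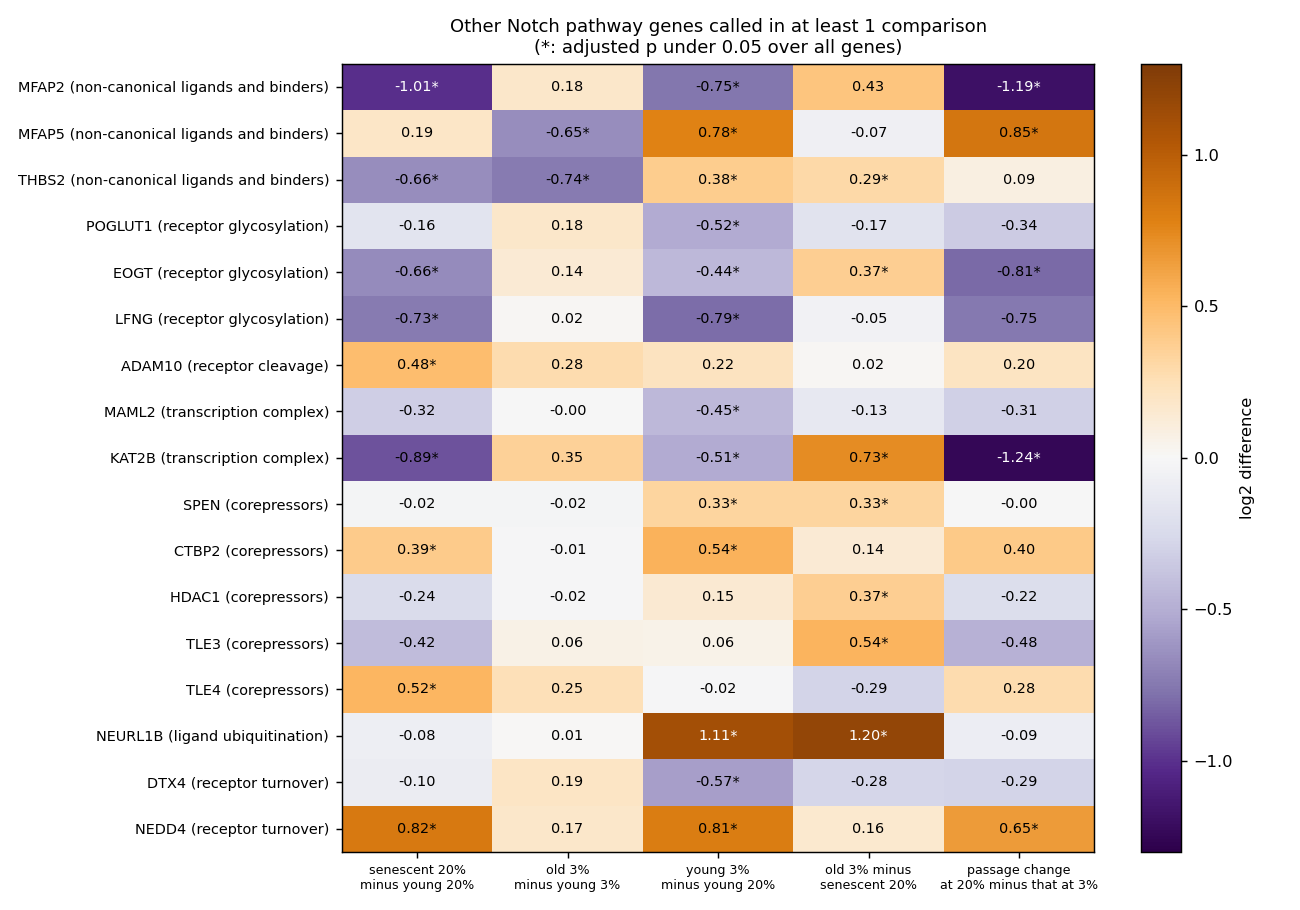
log2 differences (colour and printed value) of the 17 other pathway genes called at least once, by comparison; an asterisk marks an adjusted p under 0.05 over all genes. NEURL1B is at 1.11 and 1.20 in the comparisons of 3% with 20% oxygen and at -0.08 and 0.0087 in those of passage.

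Some genes known from other cell types moved in the same comparisons. Of 11 markers of pericytes and smooth muscle, a cell type in which NOTCH3, HEY1 and HEYL are known, 1 was higher and 2 were lower in senescent than in young-20% cells, and 1, MCAM, was higher in old-3% than in young-3% cells (0.63). Between young-3% and young-20% cells 3 were higher and 2 lower, and between old-3% and senescent-20% cells 3 were higher (MCAM, CSPG4 and MYOCD) and 1 lower (RGS5). These were 27.3%, 9.09%, 45.5% and 36.4% of the list in these comparisons in turn, beside 12.5%, 1.74%, 11.8% and 11.0% of all genes. The mean of this list ranged from -0.05 to 0.09 in young-20%, -0.14 to -0.07 in senescent-20%, 0.0040 to 0.06 in young-3% and -0.01 to 0.14 in old-3% cells. Of 12 fibroblast markers 2 were higher and 5 lower in senescent than in young-20% cells (58.3% of the list). In young-3% against young-20% cells 1 was higher and 4 lower (41.7%), and in old-3% against senescent-20% cells 2 were higher and 2 lower (33.3%). None was called between old-3% and young-3% cells. The mean of the fibroblast markers ranged from 0.18 to 0.21 on the young-20% arrays and from -0.15 to 0.03 on the others. Of 12 endothelial markers none was called in any comparison, beside 21.9% of all genes called at least once. Of 10 neural and 11 epithelial markers none was called in either comparison of passage at 1 oxygen level. TUBB3, a neural marker, was called higher in old-3% than in senescent-20% cells (0.32), but only 3 of the 10 neural markers were above 0 there (median -0.07). In young-3% against young-20% cells 1 neural marker, NES (-0.75), and 1 epithelial marker, KRT19 (-0.91), were called, both lower. These were 10.0% and 9.09% of their lists, beside 11.8% of all genes. Differences there were above 0 for 5 of the 10 neural and 3 of the 11 epithelial markers. The neural mean ranged from -0.18 to 0.02 in old-3% and from -0.02 to 0.05 in senescent-20% cells. No absolute level of these markers could be read, and their part in the differences above was not tested. RNA quality was gauged by ACTB, as the value of its 3' control probe set less that of its 5' one, which ran from -0.22 to 0.71, highest on young-3% replicate 2; with it as a covariate the HES1 calls were lost (differences of -0.32 and -0.52) and the other member calls held.

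For each member the 3 genes with the most similar values over the 12 arrays were sought among the 9887 or 9888 other genes whose SD was at or above the median of all genes. JAG1 was closest to the water channel AQP3 (Pearson r = 0.989), the immediate-early factor FOS (0.981) and the growth factor PDGFD (0.970), all highest in young-20% cells. HEY1 was closest to RNF182 (0.990), the zinc finger factor SALL1 (0.974) and CLEC2B (0.972), all highest in old-3% cells. NOTCH3 was closest to the p53 target CCNG1 (0.955), BBS2 (0.952) and the mitophagy kinase PINK1 (0.952), NOTCH2 to CPD (0.976), NDFIP2 (0.959) and OPN3 (0.951), and DNER to NPTX1 (0.947), CCDC3 (0.940) and GALNT5 (0.939). For HES1 (PITRM1-AS1, 0.924), NOTCH1 (KRT72, 0.963), HEY2 (UGT3A1, 0.923) and HEYL (CFAP410, 0.986) only the first of the 3 genes is given, with its r. Within the set the highest pairs were NOTCH1 with HEYL (0.792), DNER with HEY1 (0.739), JAG1 with HES1 (0.729) and NOTCH2 with NOTCH3 (0.697). These correlations describe the 12 arrays, which share 4 groups and their array-wide deviations, and no p-value is given.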

How the data were processed

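RNA of 12 IMR-90 cultures was hybridised to Affymetrix arrays; per the submitters' processing notes the authors used RMA, of no stated version. The deposited values are taken as log2 signals, centred on each probe set's median over the 12 arrays: the file shows the centring (medians of 0 within 1e-06), and the log base is assumed from RMA. There are 54675 probe sets and no missing values. Of these, 41091 name 1 gene in GEO's platform annotation and were matched by Entrez identifier (41037 matched) to current symbols and averaged per gene (19775 genes).

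One limma model (version 3.58.1, R 4.3.3; lmFit and eBayes, tested on simulated data) held a mean for each group and used all 12 arrays. Its 5 contrasts were two-sided; p-values were adjusted across all genes by the Benjamini-Hochberg method, and a gene was called when under 0.05. A like fit was made on single probe sets. Alternatives changed the moderation, probe set choice, normalization, centring, arrays in the fit, weights, replicate block, filter, threshold and RNA quality term. Adjusted p-values in the text are limma's. The members, the list of other pathway genes, the markers, the contrasts and the rules for named genes (all members; pathway genes called at least once, up to 4 per role and contrast; the 3 most similar genes per member) were chosen with earlier results of these data known. Because the values are centred, no filter on dim genes was possible. No array duplicated another. The labels do not say whether the replicate number pairs arrays across groups. Deviations from group means of same-numbered senescent-20% and old-3% arrays correlated at 0.129, 0.519 and 0.669 for replicates 1, 2 and 3. For no other 2 groups were all these correlations above 0. Arrays of unlike number were not compared. Replicate 3 of young-20% and young-3% reached 0.430, replicate 2 of young-3% and old-3% 0.339, and replicate 1 of senescent-20% and young-3% 0.327. A pairing is therefore not shown. Motifs were searched as exact letters on both strands. The number of arrays limits the precision.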

Additional observations from a re-analysis of the deposited data

Results flagged for a closer look

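The change with passage at 20% oxygen minus that at 3% is given on the log2 scale, from 3 arrays in each of the 4 groups. For the members it was 0.68 for NOTCH3, -0.78 for JAG1, -0.52 for HES1 and -1.31 for HEY1. These genes were selected on such differences, so their values are a description and no test. For the other pathway genes called on this difference (limma's adjusted p under 0.05 over all genes), it was -1.19 for MFAP2, -0.81 for EOGT, -1.24 for KAT2B, 0.65 for NEDD4 and 0.85 for MFAP5. Their list was also chosen with earlier results of these data known, so these values too are a description. The HES1 value lost its call in 16 of 21 alternatives and the MFAP2 value without 10 of the 12 arrays, each left out in turn.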

How the results depend on the processing

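No value that was called with all arrays changed direction under an alternative, for the members or the other pathway genes named; of the members' differences that were not called, 9 changed sign under at least 1 alternative, in 25 of 682 values. For the 9 members 972 values kept their side of the threshold, 41 lost a call and 12 gained one. In the order senescent against young at 20% oxygen, old against young at 3%, young-3% against young-20%, old-3% against senescent-20%, and the difference of the passage changes, leaving out single arrays gave 1687 to 2567, 187 to 423, 1626 to 2455, 1607 to 2261 and 858 to 1411 genes called. The members called were 3 to 4, 2, 1 to 2, 4 to 5 and 2 to 4, and the other pathway genes 8 to 11, 1 to 2, 8 to 13, 3 to 10 and 4 to 6. With an absolute difference of at least 1 the genes called were 372, 80, 459, 470 and 452, the members 1, 2, 0, 2 and 1, and the pathway genes 1, 0, 1, 1 and 2. At an adjusted p under 0.01 the genes were 1477, 162, 1412, 1305 and 624, with 2 members for the difference of changes and 1, 6 and 2 pathway genes for old-3% against young-3%, young-3% against young-20% and old-3% against senescent-20%. With array quality weights the genes were 6203, 4137 and 2684 for senescent-20% against young-20%, old-3% against senescent-20% and the difference of changes, the pathway genes 19, 22 and 9, and the members 2 for young-3% against young-20%. With the 2 groups compared alone, 124 genes and 1 pathway gene were called at 3% oxygen and 2 pathway genes for old-3% against senescent-20%. With the probe set of largest SD per gene, 3 members were called for young-3% against young-20% (NOTCH2 at -0.46, NOTCH3 at 0.61, and JAG1). The filter on flat genes left 4 pathway genes for old-3% against senescent-20% and gave no value for HES1 and HEY2, whose SD fell below the median. With the replicate block over all 12 arrays the genes called were 2303, 267, 2182, 2028 and 1125, and HES1 lost its calls (-0.32 and -0.52); with the replicate block in the senescent-20% and old-3% arrays alone 2842 genes and 8 of the other pathway genes (7 without the block) were called, the THBS2 call was lost and no member's call changed. The causes were not tested. Moderated robustly, normalized again by quantiles, or centred per array, counts stayed within 1.5 times. The values are relative to probe set medians, so signal over background, and with it the reliability of dim probe sets, could not be judged. With 3 arrays per group, a p that misses the threshold does not show that groups are alike.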
